A study of Mus musculus with 6 samples.

Results

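The canonical NF-kB pathway and the inflammatory mediators that it switches on were followed in the inguinal lymph nodes of mice given naringin, the flavanone glycoside of grapefruit. The set comprised 10 genes, picked by symbol as the usual readouts of flavonoid anti-inflammatory action: Nfkb1, Rela, Nfkbia, Nfkbiz, Tnfaip3, Birc3, Tnf, Il6, Ptgs2 and Nos2. All 10 were present among the 50559 genes of the deposited table, and 9 of them passed the filter on low values. The Naringin group held 3 libraries from mice fed 200 mg/kg of naringin per day mixed into the food, and the Control group 3 libraries described only as control. No source used here gives strain, sex, age, length of feeding or control diet, and nothing in the labels states that the libraries of a group are separate animals, so p-values measure the spread between these libraries only. No inflammatory stimulus is named for either group.

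In resting cells, dimers of the Rel proteins, classically the p50 product of Nfkb1 with RelA, are held in the cytoplasm by the inhibitor IkB-alpha, the product of Nfkbia. Signals from TNF, interleukin and pattern recognition receptors or from antigen receptors activate the IkB kinase, the inhibitor is degraded, and the dimers enter the nucleus. Among the genes they switch on are their own brakes, Nfkbia and Tnfaip3, and in stimulated macrophages, stromal cells and lymphocytes the mediators Tnf, Il6, Ptgs2 and Nos2. Transcript levels do not report the degradation of the inhibitor or the movement of the dimers.

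Start sites are shown because some of these genes, Nfkbia and Tnfaip3 among them, are targets of the pathway. The RefSeq table of promoters (build GRCm38.p6) held 7 of the 10 genes and had no entry for Nfkb1, Nfkbiz or Nos2. The 250 bases before each start were searched on both strands for a common form of the kB element, GGGNNTTTCC (GGAAANNCCC on the other strand). Such a match was found for 3 of the 7 genes, Nfkbia, Tnfaip3 and Il6, and in 1.65% of all 27025 genes with a window of this length. For these 3 genes and for Rela, which had none, the 100 bases before the start are given, with the match in capitals.
Nfkbia, chr12:55492648-55492747, minus strand: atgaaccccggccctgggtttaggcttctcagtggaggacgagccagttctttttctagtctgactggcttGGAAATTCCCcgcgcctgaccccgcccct
Tnfaip3, chr10:19015411-19015510, minus strand: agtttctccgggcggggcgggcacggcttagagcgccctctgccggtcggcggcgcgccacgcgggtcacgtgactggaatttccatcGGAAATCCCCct
Il6, chr5:30013014-30013113, plus strand: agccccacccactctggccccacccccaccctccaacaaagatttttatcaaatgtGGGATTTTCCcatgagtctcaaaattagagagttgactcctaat
Rela, chr19:5637441-5637540, plus strand: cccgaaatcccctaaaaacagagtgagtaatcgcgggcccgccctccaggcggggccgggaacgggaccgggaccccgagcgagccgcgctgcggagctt
The match lay 29 to 20 bases before the start in Nfkbia, 12 to 3 bases before it in Tnfaip3 and 44 to 35 bases before it in Il6. Tnfaip3 had another listed start, whose window (chr10:19011964-19012213) held no match. These are matches of letters, not measured binding, and other forms of the element were not searched.

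Naringin libraries differed little from Control libraries across these genes (the plots of CPM by library and of folds). CPM are reads per 1000000 assigned reads, and only genes averaging 1 CPM or more were tested. Of the 9 genes tested, 5 had a log2 fold of naringin over control above 0 and 4 below, fitted on log2(CPM + 1). Counted by mean CPM, 6 were higher, since Nos2 has a higher Naringin mean in CPM and a fitted fold just below 0. Without Control 3, 1 of the 9 folds was above 0, that of Nfkbia, while the share of all genes above 0 was 56.7% with all libraries and 50.3% without it. The median log2 fold of the 9 was 0.02, as was that of all 14873 genes tested, and it was -0.07 without Control 3. In limma none of the 9 passed an adjusted p of 0.05 (adjusted p = 0.9996 for each), and over all genes tested 0% passed. At an unadjusted p under 0.05 there were 0 of the 9 genes against 1.43% of all genes. By edgeR and DESeq2 on the recovered reads, 0 of the 9 passed as well, and none had an unadjusted p under 0.05 in either tool. The 95% intervals of the 9 folds, on the log2(CPM + 1) scale, together ran from 0.610 times to 1.58 times the Control level. Every one of them included no difference, and none reached a 2-fold change of CPM + 1 in either direction. That scale draws low genes toward no change. For Ptgs2 and Nos2 the intervals therefore do not bound the fold in CPM, and a 2-fold change in CPM is not excluded.

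**Figure D1:**
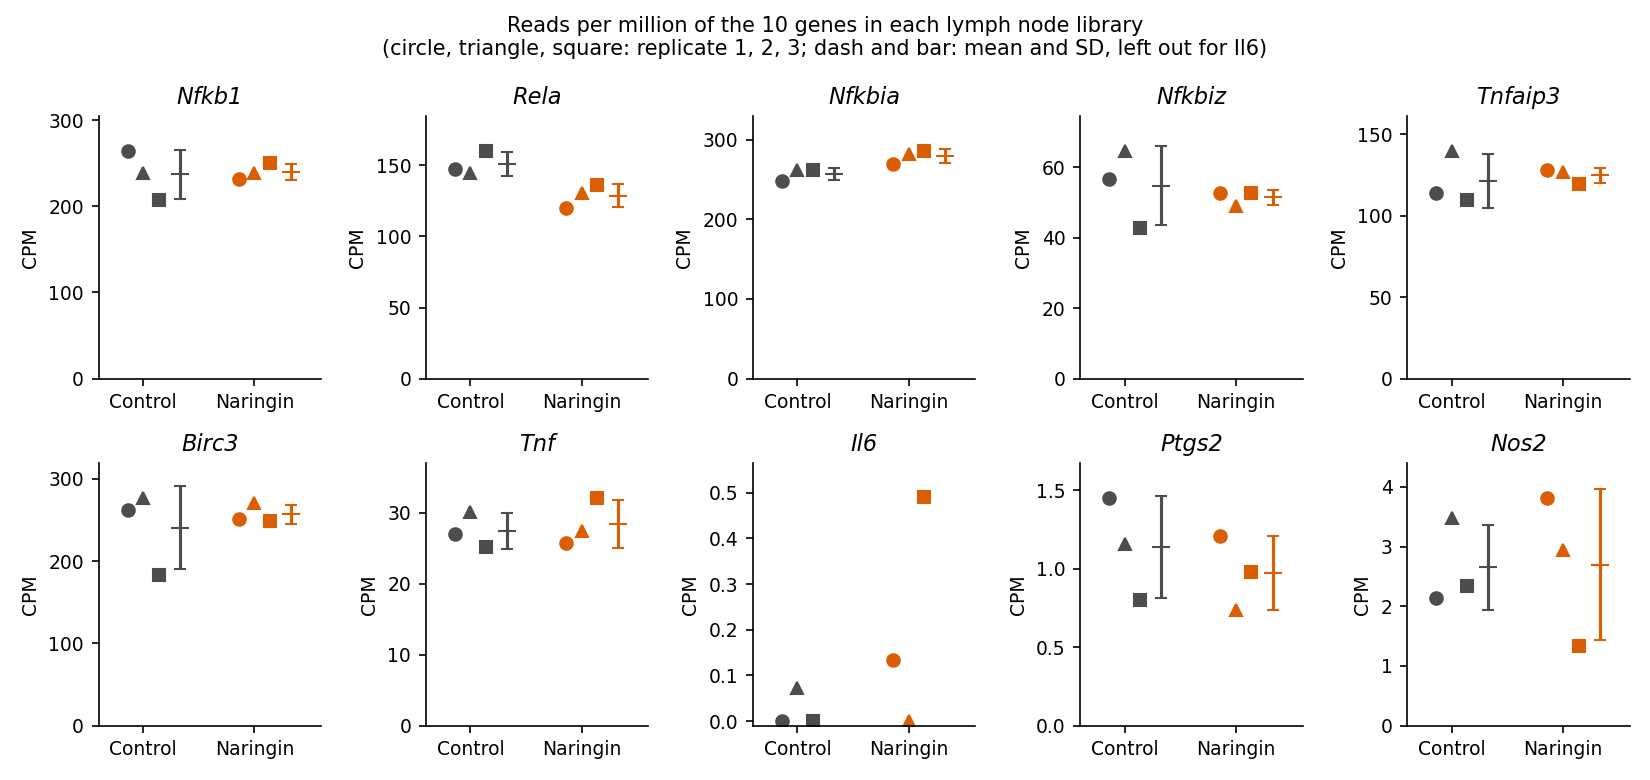
Counts per 1000000 assigned reads (CPM) of each of the 10 genes in the 3 Control libraries (grey) and the 3 Naringin libraries (orange), with the mean and SD beside the points, left out for Il6. Nfkbia is higher and Rela lower in every Naringin library, and in the other panels the groups overlap.

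**Figure D2:**
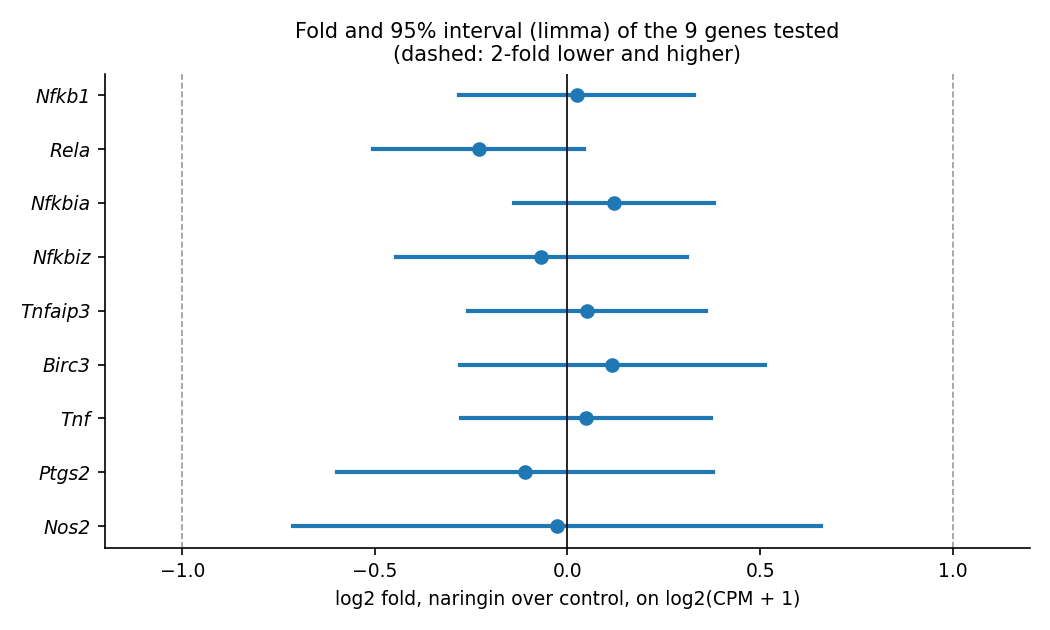
The log2 fold of naringin over control for the 9 genes tested (points) with the 95% interval from limma (lines), 3 libraries in each group. All 9 intervals cross 0, and none reaches the dashed lines at 2-fold.

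Assigned reads numbered 13074180 to 14976422 per library, so 1 read was worth 0.0668 to 0.0765 CPM. The 8 lymphocyte markers summed to 3236 to 3577 CPM in Control and 3182 to 3826 CPM in Naringin, and genes of skin and skeletal muscle to at most 4.41 CPM. Of the other marker lists, only the 7 endothelial genes had a summed level that separated the groups. The sums were 609 to 918 CPM for Control and 947 to 1099 CPM for Naringin. A fitted log2 fold above 0 was found for 6 of the 7. Macrophage and monocyte genes (12 of 12 found, with none at 0 in every library) summed to 3406 to 5878 CPM in Control and 3071 to 6012 CPM in Naringin. The 10 immediate early genes, which also respond to tissue handling, summed to 397 to 443 CPM and 356 to 423 CPM. In bulk tissue, fewer cells of a type cannot be told apart from less RNA per cell.

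The transcription factor subunits came first. Rela encodes RelA (p65), the subunit that carries the transactivation domain. It was measured at 148, 145 and 161 CPM in Control 1, 2 and 3 and at 119.7, 130.3 and 136 CPM in Naringin 1, 2 and 3. Every Naringin library thus lay below every Control library, with a gap of 8.90 CPM between the groups. The means were 151 ± 8.33 and 129 ± 8.24 CPM (SD, n = 3 each). The log2 fold of -0.23 ± 0.12 (SE) was the largest of the 9 genes and had an unadjusted limma p of 0.0892, which 3.14% of all genes tested matched or undercut. The difference between the means exceeded the SD of either group but did not pass the test across all genes. The exact permutation test gave p = 0.1 (2-sided), the smallest that 3 against 3 libraries can give.

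Nfkb1 encodes p105, the precursor of the p50 subunit, and is itself a target of the pathway. Its levels were 265, 239 and 207 CPM in Control and 231, 238 and 250.1 CPM in Naringin. All 3 Naringin values lay inside the Control range. The log2 fold was 0.02 ± 0.13 (SE), and its interval ran from 0.823 times to 1.26 times the Control level.

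The inhibitors and cofactors of the nuclear dimer followed. Nfkbia, the rapid feedback inhibitor, was measured at 248, 262 and 262 CPM in Control and at 270.1, 283 and 287 CPM in Naringin. Every Naringin library lay above every Control library, with a gap of 8.42 CPM. The means were 257 ± 7.88 and 279.8 ± 8.64 CPM (SD, n = 3 each). From these limma fitted a fold of 0.12 ± 0.11 (SE) on the log2 scale, or 1.09 times, with an unadjusted p of 0.312. That is close to its own SE, although Nfkbia was the most even of the 10 genes, varying by 3.07% of its mean among Control and 3.09% among Naringin libraries. The separation depended on scaling, as the plot of scalings shows. With TMM scaling Control 3 stood at 273 CPM, above Naringin 1 at 270.1 CPM, and with upper-quartile scaling Control 3 stood at 283 CPM, above Naringin 1 at 263 and Naringin 2 at 278 CPM.

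Nfkbiz encodes IkB-zeta, an inducible nuclear cofactor that is needed for a subset of secondary target genes such as Il6. It was measured at 56.8, 64.8 and 42.6 CPM in Control and at 52.7, 49.1 and 52.6 CPM in Naringin. The Naringin values lay between the lowest and the middle Control value. The log2 fold was -0.07 ± 0.16 (SE).

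Nfkbia and Rela were thus the 2 of 9 genes whose groups did not overlap, against 5.65% of all genes tested. One lay higher, as did 3.36% of all genes, and the other lower, as did 2.29%. With TMM, upper-quartile or quantile scaling, 1 of the 9 remained apart, which was Rela in each case, against 5.31% to 5.80% of all genes. A ratio within a library does not depend on scaling by a single factor per library, as in TMM or upper-quartile scaling. Quantile scaling can change it. The ratio of Nfkbia to Rela was looked at after both values were seen. It stood at 1.68, 1.81 and 1.63 in Control and at 2.26, 2.17 and 2.11 in Naringin. Because both genes were picked for their separation, this ratio is a description and carries no test. The endothelial marker sum moved with the same split of the libraries, and its part in either result was not tested.

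**Figure D3:**
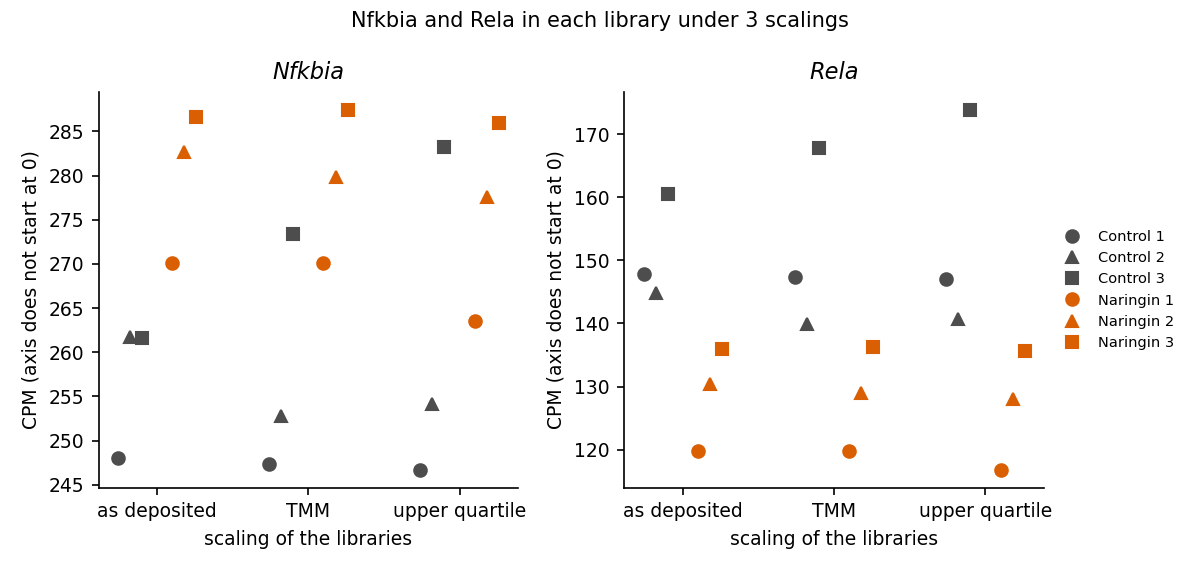
Level of Nfkbia (left) and Rela (right) in each library, in CPM as deposited and after TMM or upper-quartile scaling, on axes that do not start at 0. The Control 3 value of Nfkbia rises from 262 to 273 and 283 CPM and enters the Naringin range, while Rela stays lower in all 3 Naringin libraries under each of the 3 scalings.

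The ubiquitin regulators were next. Tnfaip3 encodes A20, a ubiquitin-editing enzyme that ends signalling to the IkB kinase. It stood at 114, 140.0 and 109 CPM in Control and at 128, 127 and 119 CPM in Naringin, with all Naringin values inside the Control range. The log2 fold was 0.05 ± 0.13 (SE). Birc3 encodes the ubiquitin ligase cIAP2, an anti-apoptotic target gene that acts at the TNF receptor. It stood at 262, 277 and 183 CPM in Control and at 251, 270.1 and 249 CPM in Naringin. Control 3 lay below the other 5 libraries, which were close together. The log2 fold was 0.12 ± 0.17 (SE). The handling of reads shared by Birc3 and its paralog Birc2 is not stated, so its level is uncertain to that extent.

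Of the 4 mediators, only Tnf exceeded 5 CPM. Tnf, the founding inflammatory cytokine of the pathway, stood at 27.0, 30.1 and 25.1 CPM in Control and at 25.7, 27.4 and 32.1 CPM in Naringin. The groups overlapped, and the log2 fold was 0.05 ± 0.14 (SE), with an interval from 0.826 times to 1.30 times the Control level.

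Nos2 encodes the inducible nitric oxide synthase of activated macrophages. Its reads numbered 28, 48 and 35 for Control, then 57, 44 and 19 for Naringin, or 2.14, 3.47 and 2.34 CPM against 3.82, 2.94 and 1.33 CPM. Both the highest and the lowest of the 6 values were Naringin libraries. The log2 fold was -0.03 ± 0.30 (SE), the widest error of the 9 genes. The same libraries marked the ends of the macrophage sum, 6012 CPM for Naringin 1 and 3071 CPM for Naringin 3, but Control 3, with 5878 CPM of macrophage genes, had a Nos2 level near that of Control 1 with 3406 CPM. The part of macrophage content in the Nos2 spread was not tested.

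Ptgs2 encodes cyclooxygenase-2, the inducible enzyme of prostaglandin synthesis. Its reads numbered 19, 16 and 12 for Control, then 18, 11 and 14 for Naringin, or 1.45, 1.16 and 0.802 CPM against 1.21, 0.734 and 0.981 CPM. It passed the filter narrowly, with a mean of 1.06 CPM over the 6 libraries. The log2 fold was -0.11 ± 0.21 (SE). Over the pooled reads, 47 in Control and 43 in Naringin, Naringin stood at 0.867 times Control after allowing for depth (exact binomial 95% interval 0.560 to 1.34, for counting error alone).

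Il6, the acute-phase cytokine, was close to absent. Control 1, 2 and 3 held 0, 1 and 0 of its reads, and Naringin 1, 2 and 3 held 2, 0 and 7. Only the Naringin 3 value, 0.490 CPM, exceeded the 0.210 CPM that 3 reads amount to in that library. Pooled and corrected for depth, Naringin stood at 8.53 times Control (exact binomial 95% interval 1.18 to 374), but 7 of the 9 Naringin reads came from 1 library. Across libraries the exact permutation test gave p = 0.4 (2-sided), where 0.1 is the smallest that 3 against 3 libraries can give. This test could therefore not have shown a difference at p under 0.05, whatever the depth. With no filter on low values, limma gave Il6 a log2 fold of 0.22, with an unadjusted p of 0.106 and an adjusted p of 0.9998.

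Set against exon length, the genes spanned a wide range of abundance. Exon lengths from GENCODE M21, an annotation of an older build than the mm39 of the files, were used only for this order. The length counts every base covered by any annotated exon of the gene, 12061 bases for Nfkb1 and 7226 for Tnfaip3. A length taken from a single shorter transcript would raise a gene's level, so the order and the likenesses below hold for this length only. Nfkbia stood highest in Control, at 159.7 ± 4.90 CPM per kilobase (SD, n = 3), above Rela at 49.2 ± 2.71 and Birc3 at 48.0 ± 10.1, which did not differ beyond their spread. Nfkb1 at 19.7 ± 2.38, Tnfaip3 at 16.8 ± 2.29 and Tnf at 16.7 ± 1.55 CPM per kilobase were also alike within their spread. Nfkbiz followed at 10.9 ± 2.23, and Nos2, Ptgs2 and Il6 lay at 0.601 ± 0.162, 0.248 ± 0.0712 and 0.00992 ± 0.0172 CPM per kilobase. The brakes and factors of the pathway were thus plentiful in these nodes and 3 of its 4 mediators scarce, in both groups.

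Control 3 stood apart over the whole table, with a chi-square per degree of freedom of 39.3 to 61.6 against each other library, while Control 1 and Control 2 were the most alike pair at 7.68. Among the genes described here, Control 3 held the lowest value of 5 of the 9 tested genes, Nfkb1, Nfkbiz, Tnfaip3, Birc3 and Tnf, and the highest value of Rela. The share of all genes lowest in Control 3 was not counted, so this count cannot be read as particular to these genes. Birc3 varied by 21.0% of its mean among Control libraries and by 4.50% among Naringin libraries. The corresponding values were 20.5% and 3.99% for Nfkbiz, 13.6% and 3.73% for Tnfaip3 and 12.1% and 3.94% for Nfkb1. Other genes varied more among Naringin libraries, with 27.0% and 46.8% for Nos2, 9.24% and 11.7% for Tnf and 5.52% and 6.40% for Rela. The variance of Birc3 reads was 155 times the Poisson variance in Control and 7.68 times in Naringin. The spread of 3 libraries is itself poorly known, and the difference in spread was not tested.

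Without Control 3 the means of Nfkb1, Tnfaip3, Birc3 and Tnf changed sides, with log2 folds of -0.07, -0.02, -0.07 and -0.01. Nfkbiz moved to -0.23, with an unadjusted limma p of 0.0382 and an adjusted p of 0.518, when 398 genes were higher and 993 lower at an unadjusted p under 0.05. Without Control 2, Nfkbiz was at 0.06 and Nos2 at 0.13. Without Naringin 3, Nos2 was at 0.27, Tnf at -0.04 and Nfkb1 at -0.01. Rela stayed between -0.27 and -0.18 and Nfkbia between 0.10 and 0.15 whichever library was left out, while for Ptgs2 the range was -0.23 to -0.01. Control 3 also held 283 CPM of the 8 neutrophil markers, against 62.4 and 66.8 CPM in the other Control libraries. All other marker lists but the endothelial and adipocyte ones likewise had their highest Control sum in Control 3. For mast cells it was 370 CPM, against 80.5 and 126 CPM in Control 1 and Control 2. Naringin 1 held 289 CPM of the neutrophil and 313 CPM of the mast cell markers and had Birc3 at 251 CPM. The part of cell content in the Control 3 values was not tested.

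**Figure D4:**
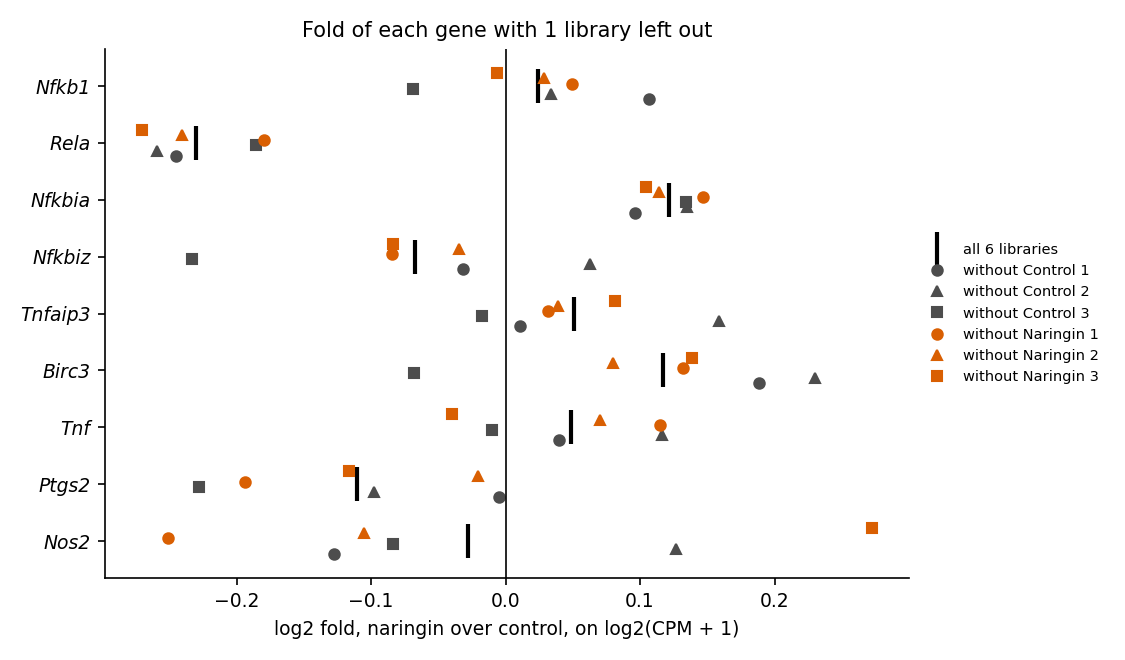
The log2 fold of each of the 9 genes tested with all 6 libraries (black bar) and with each library left out in turn (grey: a Control library left out, orange: a Naringin library; circle, triangle and square for replicates 1, 2 and 3). Rela, Nfkbia and Ptgs2 keep their side of 0 throughout, and the grey squares for Nfkb1, Tnfaip3, Birc3 and Tnf lie below 0.

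The rest of the pathway was described through 6 lists with 100 genes, 92 of them tested. None of the 92 passed the adjusted threshold in either direction. Of these, 62 (67.4%) had a log2 fold above 0 and 30 below, against 56.7% of all genes above 0, and the median was 0.08 against 0.02. Without Control 3, 50 of the 92 (54.3%) were above 0, against 50.3% of all genes, and the median was 0.02. Of the 92, 3 (3.26%) had an unadjusted p under 0.05, against 1.43% of all genes. In the counts that follow, higher and lower mean a fitted log2 fold above or below 0. For 5 of them the groups did not overlap, near the 5.65% of all genes: Myd88, Socs3, Tab1, Ass1 and Ptges. Ptges, a prostaglandin E synthase, was picked out after its values were seen, with no Control library under 3.06 CPM and 2.81, 2.40 and 1.89 CPM for Naringin (log2 fold -0.33).

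Among the other Rel subunits, IkB proteins and IkB kinase subunits, 6 of 10 were higher and the median was 0.02. Bcl3, a nuclear IkB protein, was at 0.27 and the kinase subunit Chuk at 0.30, while Relb and Nfkbib, the gene of IkB-beta, were at -0.17 and -0.09. Without Control 3, Chuk was at -0.02, Relb at -0.00062 and Nfkbib at -0.0030, and Bcl3 was at 0.14 without Control 2. Of the receptors, adaptors and ubiquitin machinery that lead to the kinase, 17 of 22 were higher, with a median of 0.10, and without Control 3 the count was 11 of 22. Adam17, the protease that sheds TNF, averaged 108 ± 17.5 CPM for Control libraries and 137 ± 17.6 CPM for Naringin libraries (SD, n = 3 each; log2 fold 0.34, and 0.20 without Control 3). The adaptor Myd88 was at 0.26, or 0.16 without Naringin 1, with 66.2, 70.4 and 80.1 CPM against 99.1, 80.7 and 80.3 CPM, so that its groups were barely apart. Tab1, a partner of the kinase TAK1, was at -0.27, with 34.6 to 38.6 CPM in Control and 29.7 to 30.8 CPM in Naringin. Of the brakes, 11 of 13 were higher, with a median of 0.10, and without Control 3 the count was 6 of 13, with a median of -0.06. Rnf11 and Irak3 had the smallest p of the higher ones, with log2 folds of 0.19 and 0.23, and Irak3 was at 0.10 without Control 3. The RNase gene Zc3h12a and Tnip1, a partner of A20, were both at a log2 fold of -0.08. Without Naringin 2, Tnip1 was at -0.0026 and Zc3h12a at -0.05.

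Of 28 further inducible target genes, Ccl3, Cxcl2, Il23a and Csf2 were below the filter, and 14 of the 24 tested were higher, with a median of 0.09. The count was 16 of 24 without Control 3, with a median of 0.14, and 12 of 24 without Control 1. The chemokine Ccl20 had the largest log2 fold, 1.09 ± 0.46 (SE), from 0.306, 0.361 and 2.07 CPM in Control to 5.23, 3.01 and 1.12 CPM in Naringin. Its groups overlapped, and its log2 fold was 0.73 without Naringin 1. The cytokine Il1b stood at 7.80, 7.01 and 11.2 CPM and at 24.5, 12.1 and 9.32 CPM, a log2 fold of 0.67 that was 0.29 without Naringin 1. The survival gene Bcl2a1d and the chemokine Ccl4 were at -0.23 and -0.31, with Bcl2a1d at -0.05 without Control 3 and Ccl4 at -0.13 without Control 1. Bcl2a1d belongs to a family of near-identical copies, so its share of reads is uncertain.

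Around Ptgs2 and Nos2, 15 of 19 prostaglandin and nitric oxide genes were tested and 8 were higher, with a median of 0.05. The count was 5 of 15 without Naringin 1, and 10 of 15 without Control 3, with a median of 0.07. Ptgis, Ptger3, Nos1 and Arg1 were below the filter. Pla2g4a, the phospholipase that frees arachidonic acid, was at 0.41 with all libraries and at 0.03 without Naringin 1. Ptges3 was at 0.16, or 0.07 without Naringin 3 or Control 2. Ass1, which makes the arginine precursor, was at -0.28, with 69.6 to 77.9 CPM in Control and 56.1 to 68.2 CPM in Naringin, and the prostaglandin receptor Ptger1 was at -0.47, or -0.28 without Naringin 1. Of the 8 genes of interleukin 6 reception and signalling, 6 were higher, with a median of 0.10, and without Control 3 the count was 2 of 8, with a median of -0.08. Socs3, the feedback inhibitor of that receptor, had the smallest p of the pathway genes. It stood at 62.5, 47.6 and 55.7 CPM in Control and at 101, 64.1 and 81.3 CPM in Naringin, a log2 fold of 0.55 ± 0.19 (SE) with an unadjusted limma p of 0.0179 and an adjusted p of 0.9996. Ptpn11 was at 0.13 and, without Control 3, at -0.02. Tyk2 was at -0.11, or -0.05 without Control 1, and the shared receptor chain Il6st was at -0.05, with 0.19 when Control 2 and -0.34 when Control 3 was left out.

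**Figure D5:**
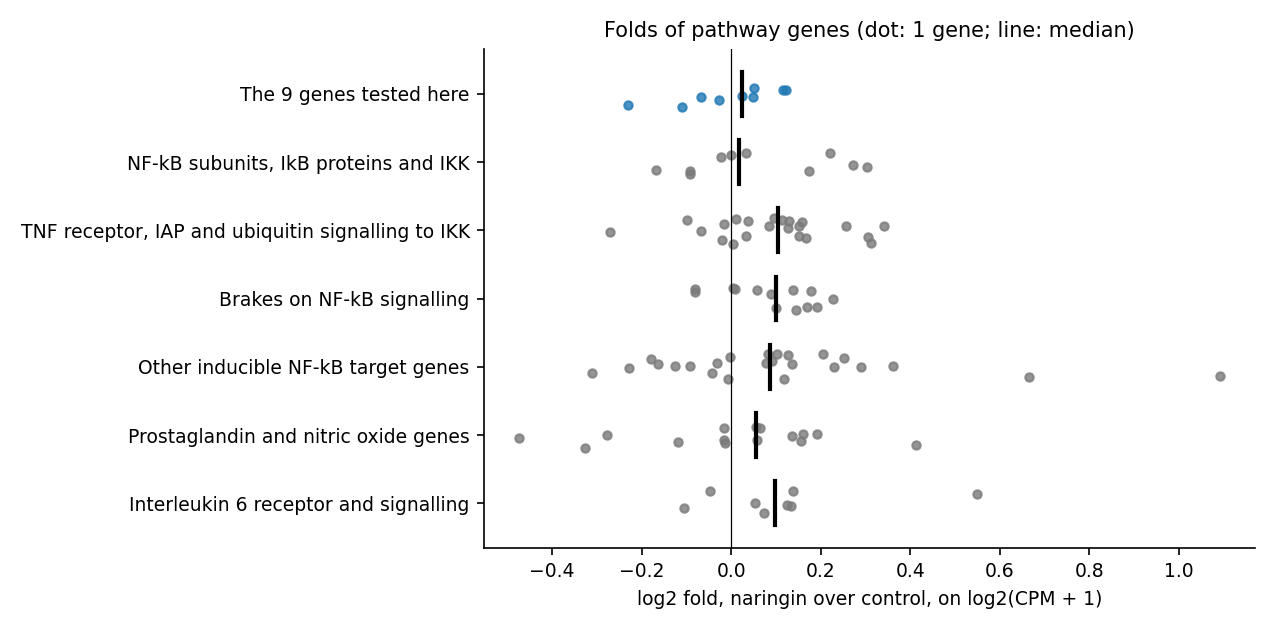
Log2 folds, naringin over control, of the 9 genes tested (blue) and of the 92 tested genes of 6 pathway lists (grey), 1 dot per gene, with the median of each row as a black line. The medians lie between 0.02 and 0.10, and the dots farthest to the right are Ccl20 at 1.09 and Il1b at 0.67.

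The genes most like the feedback inhibitors were sought among 9714 others with a mean of at least 10 CPM, by Pearson's r of log2(CPM + 1) over the 6 libraries. For Nfkbia these were Tmem70, Cnnm4, Tmem189, Ormdl2 and Cnot9, with r from 0.978 to 0.994. For Tnfaip3 they were Abcg2, Hace1, Jmjd8, Kif3c and Nup54, with r from 0.967 to 0.998. With 6 libraries and 9714 genes to pick from, values this high are a description of the likest profiles only. None of these likest genes is on the pathway lists, and between Nfkbia and Tnfaip3 themselves r was 0.24.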

How the data were processed

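Per the labels' protocols, RNA of 6 lymph node samples was purified with an RNeasy kit and libraries were made from 1 µg with the NEBNext Ultra kit. Tools listed in the submitters' processing notes are featureCounts (Subread 1.6.0), STAR 2.7.9a, Trimmomatic 0.39 and edgeR 3.40.0, with the build mm39. No source used here names the annotation or strand setting, so antisense reads cannot be told apart. The authors deposited CPM, which sum to 1000000 in every library and so carry no further scaling factor. Columns are numbered, and were matched to the numbers that open the sample titles. Whole reads were recovered from the CPM: 100% of values lay within 0.01 of a whole number of reads.

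The 14873 genes averaging 1 CPM or more, of 28727 with a read, were tested as log2(CPM + 1) with limma 3.58.1 in R 4.3.3 (trend, robust, 2-sided, Benjamini-Hochberg over all genes tested). Alternatives were other pseudocounts, filters and scalings, limma without trend, a replicate block, leaving out each library, and edgeR 4.0.16 (quasi-likelihood) and DESeq2 1.42.0 (Wald) on recovered reads. The steps were tested on simulated reads, with changes of at least 2-fold planted in genes above 5 CPM. That run does not bear on changes as small as those fitted for the 9 genes. All pairs of libraries differed beyond sampling noise, with a chi-square of 7.68 to 61.6 per degree of freedom. Intervals on reads cover counting error only.

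The 10 genes and the pathway lists were chosen with earlier results of these data known. From each list, the 2 tested genes of smallest p on either side are named, as are the 5 genes most like Nfkbia and Tnfaip3 leaving out predicted genes, pseudogenes and antigen receptor segments. A gene that this rule names is not reported here.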

Additional observations from a re-analysis of the deposited data

How the results depend on the processing

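None of the 9 genes tested passed the adjusted threshold under the alternatives run (a filter at 5 CPM left out Ptgs2 and Nos2). Over 160 refits of the 9 folds, 147 kept their direction, and the adjusted p ran from 0.518 to 1. Those refits with another filter, without trend or with a replicate block cannot change a log2 fold, so their direction was fixed in advance. Rela (-0.27 to -0.18), Nfkbia (0.079 to 0.15) and Ptgs2 (-0.24 to -0.01) kept their direction throughout. Folds that turned were those of Nfkb1 with upper-quartile scaling (-0.019) and by DESeq2 (-0.00097), and of Nos2 by edgeR (0.024) and by DESeq2 (0.011). When each library was left out in turn, the log2 folds ran from -0.040 to 0.12 for Tnf, -0.25 to 0.27 for Nos2, -0.069 to 0.11 for Nfkb1, -0.23 to 0.062 for Nfkbiz, -0.017 to 0.16 for Tnfaip3 and -0.068 to 0.23 for Birc3. Over all genes, DESeq2 called 1 higher and 2 lower, against 0 and 0 in limma and edgeR, and limma called 0 to 1 higher and 0 lower when a library was left out. At an unadjusted p under 0.05, edgeR had 154 higher and 78 lower. Genes with groups that did not overlap were counted again after seeing the data: 1 of the 9 with TMM, 1 with upper-quartile and 1 with quantile scaling, in place of 2, and 2 to 3 when a library was left out, when 8.71% to 27.8% of all genes did not overlap. The causes were not tested. The labels give no pairing of the libraries. Same-number correlations, on values centred within each group, were -0.257, -0.019 and -0.269, and no library correlated best with its own number. So few correlations cannot show whether a pairing exists. A replicate block gave 0 calls and the same log2 folds, 0.12 for Nfkbia and -0.23 for Rela, as it must when every number occurs in both groups. The number of log2 folds above 0, also counted again after seeing the data, ran from 1 to 7 for the 9 genes and from 50 to 62 for the 92 pathway genes when a library was left out. The variance of Ptgs2 reads was near that of counting error (1.33 times Poisson in Control and 0.854 in Naringin), and that of Nos2 was above it (2.66 and 8.52).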
